A study of Mus musculus with 6 samples.

Results

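The complement genes of the adult mouse lung were compared between lungs of mice treated to delete Tmem100 and lungs of control mice. The genes of interest encode the 3 chains of C1q, C3, C4b, C5 (gene symbol Hc) and factors B, H and P, 9 genes in all. The annotation used here pairs a probe with 5 of them, Hc, C4b, C1qa, C1qb and C1qc, a single probe each. C3, Cfb, Cfp and the factor H gene were not analysed here. Each of the 5 probes was detected on all 6 arrays with a detection p of 0, so none lay near the limit for testing, a detection p below 0.05 on at least 3 arrays. They are 5 of the 9383 named genes tested.

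Whole-lung RNA was hybridised to Illumina bead arrays, with a single array for each of 6 mice. The 3 mutant mice were Tmem100 2loxP/2loxP; ROSA26+/CreER, so both Tmem100 copies were floxed and the ROSA26 locus, active in most cell types, drove a Cre recombinase that tamoxifen switches on. The 3 control mice were Tmem100 2loxP/2loxP and had no CreER. The CreER allele and the deletion thus differ together between the groups, and their effects cannot be told apart here. All 6 mice, controls included, were injected with tamoxifen 2 times at 0.1 mg/g, and lungs were taken 7 days later. The lungs are described as adult, and no age in days, sex or strain is stated in the labels.

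Complement is a cascade of blood and tissue proteins that marks microbes and dying cells. C1q recognises antibody or altered surfaces and, through the proteases C1r and C1s, cleaves C4 and C2, while a lectin branch starts from mannose-binding lectin. Both branches and the alternative pathway of factors B, D and P meet at C3, and cleavage of C5 then starts the assembly of C6, C7, C8 and C9 into a membrane pore. Most circulating components come from the liver, but macrophages make C1q, and in the mouse lung alveolar type 2 cells make C5. RNA was measured here, not protein, and in whole lungs fewer cells of a type and less RNA per cell cannot be told apart.

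The promoters of Hc, the member with a called difference, and of C1qb and C1qc, adjacent genes whose products are parts of the same protein, are shown from RefSeq (GRCm38.p6). Promoters were given for 3 of the 5 members. Each runs 5′ to 3′ on the minus strand, from 250 bases before the start site to 50 after it, and capitals mark matches to any of 8 motifs searched on both strands.
Hc, chr2:35061363-35061662: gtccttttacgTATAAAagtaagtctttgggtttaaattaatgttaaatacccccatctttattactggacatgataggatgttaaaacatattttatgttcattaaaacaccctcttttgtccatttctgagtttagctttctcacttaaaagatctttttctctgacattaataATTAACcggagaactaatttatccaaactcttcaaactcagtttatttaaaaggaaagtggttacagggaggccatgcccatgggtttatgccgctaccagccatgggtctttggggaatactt
C1qb, chr4:136886151-136886450: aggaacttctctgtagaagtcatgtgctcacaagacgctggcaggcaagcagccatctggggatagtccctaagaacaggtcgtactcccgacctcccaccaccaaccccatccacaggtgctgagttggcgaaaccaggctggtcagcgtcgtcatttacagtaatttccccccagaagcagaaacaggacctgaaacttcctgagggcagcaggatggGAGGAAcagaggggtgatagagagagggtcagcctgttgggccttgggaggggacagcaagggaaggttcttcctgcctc
C1qc, chr4:136892865-136893164: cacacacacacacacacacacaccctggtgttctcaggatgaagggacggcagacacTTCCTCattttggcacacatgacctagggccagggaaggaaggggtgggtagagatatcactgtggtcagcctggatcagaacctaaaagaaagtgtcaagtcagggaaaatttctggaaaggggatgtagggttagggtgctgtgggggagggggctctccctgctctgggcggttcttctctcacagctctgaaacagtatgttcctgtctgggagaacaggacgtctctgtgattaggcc
In the Hc promoter the capitals are TATAAA, the TATA box letters, which 13.62% of 32851 promoters of this length hold, and ATTAAC, the reverse complement of the HNF1 letters GTTAAT, which 7.10% hold. The HNF1 match begins at position -74 from the start site and the TATA match at -239. In C1qb and C1qc the capitals are GAGGAA or its reverse complement, the core read by PU.1 and other ETS factors, beginning at -30 and -193. That core is found in 28.28% of promoters. None of the 3 promoters held the letters searched for C/EBP (TTGCNNAA), the glucocorticoid receptor, the interferon-stimulated response element, STAT (TTCNNNGAA) or FOX factors (TGTTTAC), found in 0.47% to 10.8% of promoters. The HNF1 letters were chosen after the Hc promoter had been read, and a match is a description of letters.

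Of the arrays, those of mutants had 12781 to 13046 of 25697 probes detected and those of controls 13354 to 13749. Tmem100, the targeted gene, had log2 intensities of 8.44, 9.43 and 9.51 in mutant mice 1, 2 and 3, against 11.16, 15.36 and 10.69 in control mice 1, 2 and 3. Its difference of -3.28 ± 1.15 (SE) did not pass (limma, adjusted p = 0.0749), and control mouse 2 stands far above the other controls. Without control mouse 2 Tmem100 passed, with a difference of -1.80 (3.48-fold lower, against 9.68-fold with it; adjusted p = 0.0283). Whether its probe lies in the deleted sequence is unknown here, so the probe may not check the deletion. In the background, 26.7% of all probes tested passed an adjusted p of 0.05 (13.5% lower and 13.3% higher in mutants). Likewise 27.2% of named genes passed, with 14.5% lower and 12.7% higher in mutants, and the groups did not overlap for 49.1%. Markers of lung epithelium were bright in all 6 lungs: the mean log2 intensity of 10 alveolar type 2 markers was 12.50 to 12.94 in mutants and 12.62 to 12.94 in controls.

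Hc fell in mutant lungs and was the 1 of 5 members that passed the test. Hc encodes C5, whose cleavage yields the inflammatory peptide C5a and C5b, the first piece of the membrane pore. Its unnormalized probe intensity was 2240, 2785 and 1574 in mutant mice 1, 2 and 3, against 8887, 5673 and 7113 in control mice 1, 2 and 3. The brightest mutant lung had less than the dimmest control lung, so the groups did not overlap. After normalization the log2 intensity averaged 10.97 ± 0.43 in mutants and 12.68 ± 0.18 in controls (SD, n = 3 each), a 3.27-fold lower level. The log2 difference was -1.71 ± 0.22 (SE; 95% confidence interval -2.24 to -1.18; limma, adjusted p = 0.00461). Of all 9383 named genes, 123 (1.31%) had a difference as low as that of Hc or lower.

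Alveolar type 2 markers are given beside Hc because these cells make C5 in the mouse lung. Of the 10 markers 0 passed in limma's test in either direction, and at an unadjusted p under 0.05 1 was lower and 0 higher. Their median log2 difference was -0.02. Sftpc, the surfactant protein C gene, differed by -0.15 ± 0.14 (adjusted p = 0.461), and Abca3, which encodes the surfactant lipid transporter, by -0.37 ± 0.18 (adjusted p = 0.179). Of 5 airway secretory markers 0 passed (0 at an unadjusted p under 0.05 as well). Among them, Scgb1a1 lay at 15.95 to 15.99 and Cyp2f2 at 15.80 to 15.99 on the log2 scale in all 6 lungs. Probes this bright may hide a difference. Of 6 alveolar type 1 markers 1 fell. The 1 hepatocyte marker measured, Serpina1a, differed by -0.11 ± 0.20 and was detected in 2 of 3 mutant and 3 of 3 control lungs. Whether Hc differs from any of these markers was not tested.

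**Figure D1:**
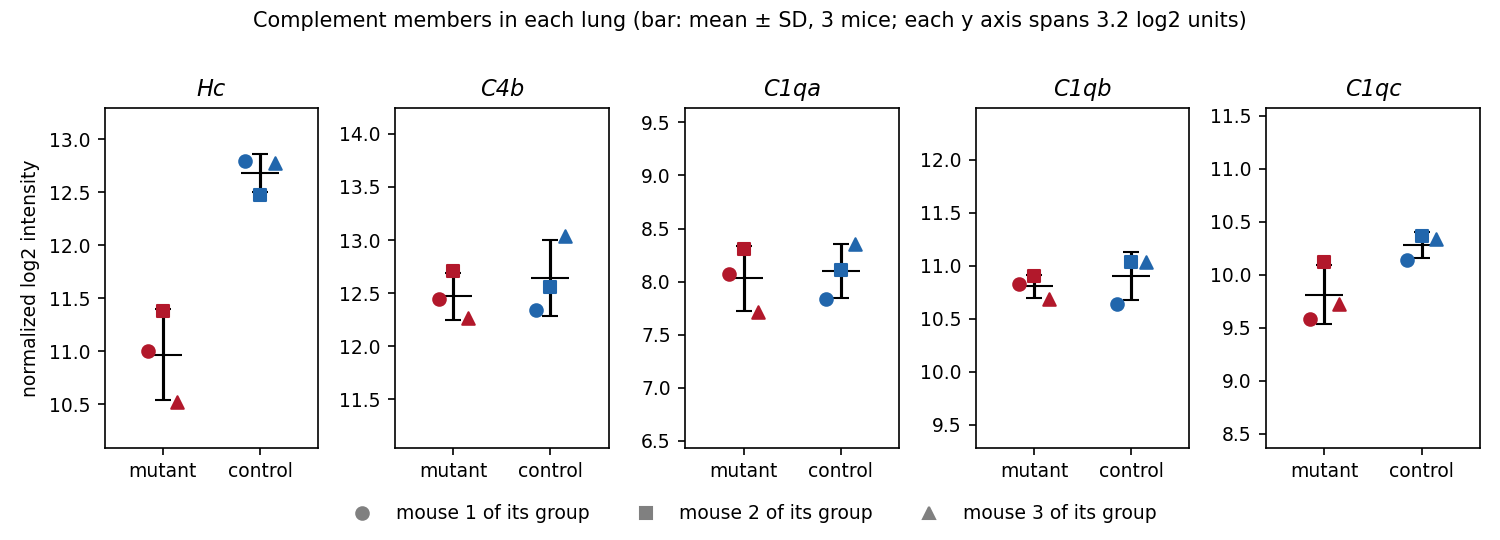
Normalized log2 intensity (y axis) of the 5 members in mutant (red) and control (blue) lungs, 1 point per mouse, with bars for the mean and SD of 3 mice. Hc lies between 10.52 and 11.38 in mutants and between 12.47 and 12.79 in controls. The C4b, C1qa and C1qb groups overlap, and those of C1qc do not.

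The C1q chain genes gave no call. C1q is built from equal numbers of its A, B and C chains, whose genes lie next to each other on mouse chromosome 4. The C1qa probe had log2 intensities of 8.07, 8.31 and 7.71 in mutant mice 1, 2 and 3, against 7.84, 8.11 and 8.35 in control mice 1, 2 and 3. C1qb had 10.83, 10.90 and 10.69 in the mutants, against 10.64, 11.03 and 11.04 in the controls. In both genes the groups overlap, with control mouse 1 below some or all mutants. The log2 difference was -0.07 ± 0.20 for C1qa (95% interval -0.54 to 0.40, adjusted p = 0.817) and -0.09 ± 0.15 for C1qb (-0.44 to 0.25, adjusted p = 0.663). These intervals leave room for modest changes in either direction.

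C1qc was the chain with the lowest value relative to controls. Its log2 intensity was 9.59, 10.12 and 9.73 in mutant mice 1, 2 and 3, against 10.14, 10.37 and 10.33 in control mice 1, 2 and 3. The groups did not overlap, though mutant mouse 2 and control mouse 1 nearly met. The difference of -0.47 ± 0.17 (95% interval -0.86 to -0.08) did not pass (adjusted p = 0.0761). It passed without mutant mouse 2 (-0.62, adjusted p = 0.0332), without background correction (adjusted p = 0.0491) and with a variance trend and robust estimation together (adjusted p = 0.0499). Within each array, C1qc minus the mean of C1qa and C1qb was 0.14, 0.52 and 0.53 in mutants and 0.90, 0.80 and 0.64 in controls. The 2 groups of values do not overlap, a description only, since the contrast was chosen after the values of the chains were seen. Among single genes, the groups did not overlap for 49.1% of all named genes.

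Macrophage markers are given here because macrophages make C1q. Of 7 markers shared by macrophages 3 fell and 0 rose in limma's test (4 lower and 1 higher at an unadjusted p under 0.05), with list means of 10.14 to 10.37 in mutants and 10.62 to 11.04 in controls. Adgre1, which encodes the F4/80 antigen, was 1.88-fold lower (adjusted p = 0.00908). Of 8 interstitial macrophage markers 3 fell and 1 rose, with list means of 8.79 to 8.94 in mutants and 9.43 to 9.55 in controls. The fractalkine receptor gene Cx3cr1 was 5.83-fold lower and the scavenger receptor gene Stab1 2.99-fold lower, whereas the haemoglobin scavenger receptor gene Cd163 was 1.75-fold higher (adjusted p of the 3 genes 0.00252 to 0.0109). The 4 without a call were Folr2 (log2 difference -0.82 ± 0.31), Apoe (-0.15 ± 0.13), Lyve1 (0.30 ± 0.35) and Mrc1 (0.10 ± 0.15). Of 5 alveolar macrophage markers 1 fell, Car4, which capillary endothelium also expresses, and 0 rose. At an unadjusted p under 0.05, 3 of these markers were lower and 0 higher. Their list means were 8.84 to 9.46 in mutants and 9.57 to 9.86 in controls. Whether the C1q chains differ from these markers was not tested.

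C4b gave no call either. Complement C4 is cleaved by C1s and its larger piece binds covalently to surfaces. The C4b probe had log2 intensities of 12.44, 12.70 and 12.26 in mutant mice 1, 2 and 3, against 12.34, 12.55 and 13.04 in control mice 1, 2 and 3. The groups overlap, with control mouse 3 highest. The difference was -0.17 ± 0.21 (95% interval -0.67 to 0.32, adjusted p = 0.565). Mice also carry C4a, a near-identical copy, and no probe sequence was used here, so the probe may read either gene.

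Of the 5 members 1 fell (20%), a share near the 14.5% of all named genes that fell, and 0 rose (limma; at an unadjusted p under 0.05, 2 lower and 0 higher). All 5 differences were below 0, as were those of 4586 of the 9383 named genes. The signs of C4b, C1qa and C1qb turned under at least 1 other setting. The median log2 difference of the members was -0.17, against 0.01 over all named genes. The groups did not overlap for 2 of 5 members, against 49.1% of all named genes.

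Among all 24 complement genes measured, of 56 listed by role, 6 fell and 0 rose in limma's test. At an unadjusted p under 0.05, 9 were lower and 2 higher. The share that fell, 25%, stands beside 14.5% of all named genes, and the median log2 difference was -0.21. Besides Hc, the genes that fell were C1s1, C1rl, C6, Serping1 and Vtn. Without control mouse 1 the number that passed was 2, without control mouse 2 it was 3 and without mutant mouse 1 it was 3. Of the 16 alternatives 5 had pathway genes that rose, 2 of them with array weights and 1 in each of the other 4.

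**Figure D2:**
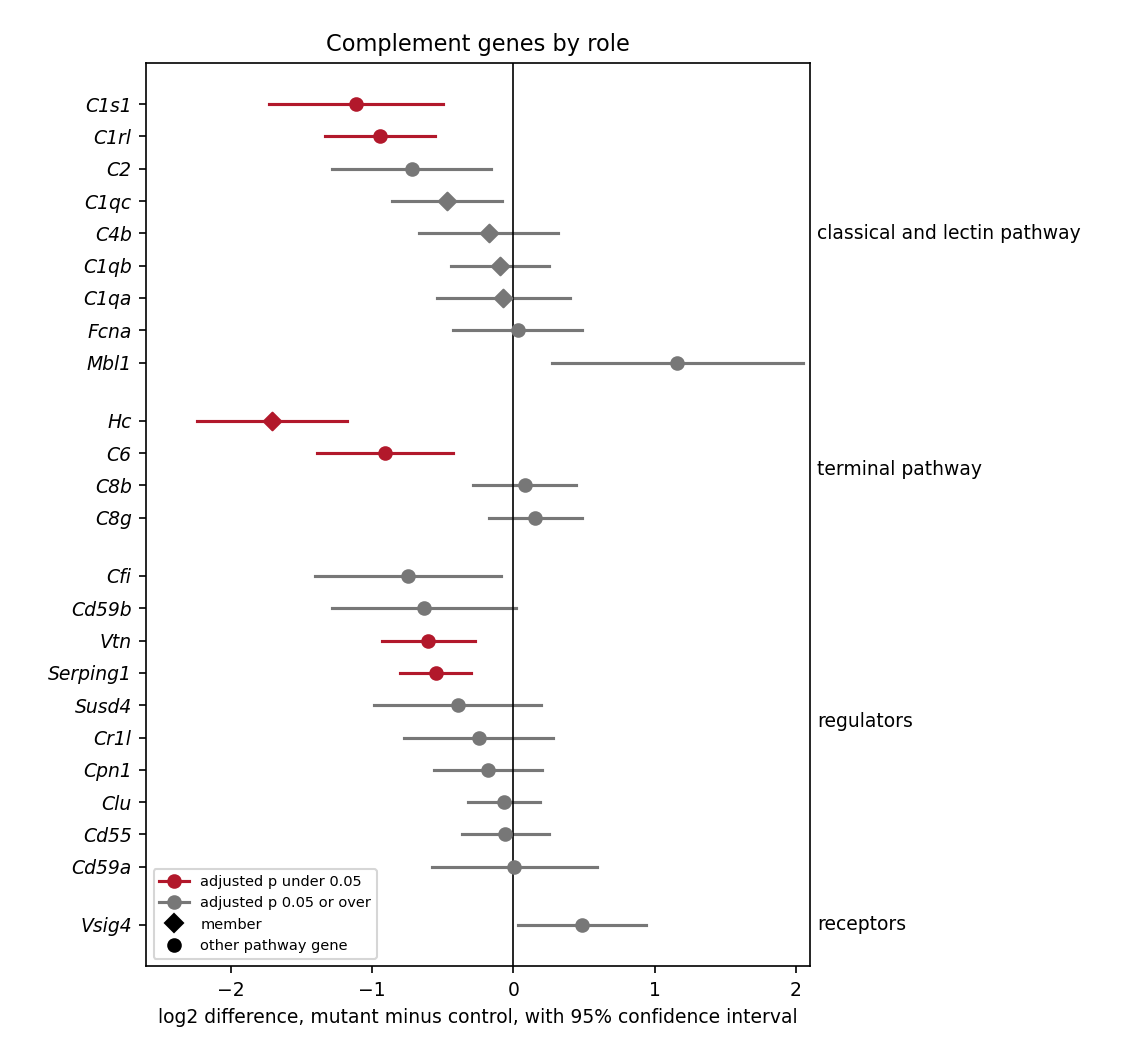
Log2 difference, mutant minus control (x axis), with 95% confidence intervals, of the 24 complement genes measured, grouped by role. Diamonds are members and red marks an adjusted p under 0.05. The 6 red genes, Hc, C1s1, C1rl, C6, Vtn and Serping1, all lie below 0.

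In the classical and lectin branches 2 of 9 measured genes fell (22.2%, against 14.5% of all named genes) and 0 rose. At an unadjusted p under 0.05, 4 were lower and 1 higher. C1s1 encodes the protease that cleaves C4 and C2. The probe that represents it had log2 intensities of 7.29, 7.61 and 6.84 in mutants, against 8.31, 8.78 and 7.99 in controls, and was 2.16-fold lower (log2 -1.11 ± 0.26, adjusted p = 0.0220). A second C1s1 probe also fell (-1.38 ± 0.28, adjusted p = 0.0144). The mouse has a close copy, C1s2, which the probes may also read. The call of C1s1 was lost without control mouse 1 (adjusted p = 0.0664), control mouse 2 (0.0592) or mutant mouse 1 (0.0591) and with the deposited processed values (0.0632). Without background correction C1s1 was 1.41-fold lower.

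C1rl, which encodes a C1r-like protease, was 1.92-fold lower (log2 -0.94 ± 0.16, adjusted p = 0.00891). On the log2 scale it measured 6.06, 6.52 and 6.13 in mutants against 7.00, 7.34 and 7.21 in controls, and it was detected on 2 of the 3 mutant arrays. The fold shrank to 1.20 without background correction, and the call was lost with the deposited processed values (adjusted p = 0.0857).

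C2, the partner of C4 in the C3-cleaving enzyme of these branches, did not pass. It is given here with Mbl1, both chosen after their values were seen because their groups do not overlap. That held for 49.1% of all named genes. The log2 intensity of C2 was 11.85, 12.08 and 11.46 in mutants, against 12.14, 12.92 and 12.49 in controls (difference -0.72 ± 0.24, adjusted p = 0.0636). Its call was gained under 5 of 16 alternatives, with adjusted p from 0.0412 to 0.0484. Mbl1, a mannose-binding lectin that starts the lectin branch, lay the other way, at 7.78, 7.70 and 7.85 in mutants against 6.65, 5.77 and 7.44 in controls. Its difference of 1.16 ± 0.38 did not pass (adjusted p = 0.0603), and its signal was detected in 2 of the 3 controls. The Mbl1 call was gained under 5 of 15 alternatives, with adjusted p from 0.0141 to 0.0442. Without background correction the Mbl1 difference was 0.39. Fcna, the gene of a ficolin of the lectin branch, differed by 0.03 ± 0.19.

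In the terminal pathway 2 of 4 measured genes, Hc and C6, fell (50%, against 14.5% of all named genes) and 0 rose. At an unadjusted p under 0.05, 2 were lower and 0 higher. C6 binds C5b as the pore begins to form. The probe that represents it had log2 intensities of 10.08, 10.53 and 9.71 in mutants, against 11.05, 11.01 and 10.98 in controls. All mutants lay below all controls, whose values were close together, and the level was 1.88-fold lower (log2 -0.91 ± 0.20, adjusted p = 0.0193). A second C6 probe differed by -0.72 ± 0.23 and did not pass (adjusted p = 0.0590). The call of C6 was lost without mutant mouse 1 (adjusted p = 0.0588), control mouse 1 (0.0671) or control mouse 2 (0.0564). The genes of 2 chains of C8 gave no call: C8b differed by 0.08 ± 0.15 and C8g by 0.16 ± 0.14.

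Of 10 regulators 2 fell (20%, against 14.5% of all named genes) and 0 rose. At an unadjusted p under 0.05, 3 were lower and 0 higher. Serping1 encodes C1 inhibitor, the serpin that inactivates C1r and C1s. Its log2 intensity was 13.64, 13.76 and 13.65 in mutants, against 14.27, 14.16 and 14.27 in controls, so the groups were tight and apart. It was 1.47-fold lower (log2 -0.55 ± 0.11, adjusted p = 0.0124), a call lost without control mouse 1 (adjusted p = 0.0545). Vtn encodes vitronectin, an adhesion protein that also blocks pore assembly. Its log2 intensity was 8.98, 9.37 and 9.28 in mutants, against 9.93, 9.74 and 9.76 in controls, and it was 1.52-fold lower (log2 -0.60 ± 0.14, adjusted p = 0.0216). The Vtn call was lost with the mouse number as a block (adjusted p = 0.0616) and without mutant mouse 1 (0.0630), control mouse 1 (0.0810) or control mouse 2 (0.0511).

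The other 8 regulators gave no call as reported. Clu, which encodes clusterin, a secreted inhibitor of pore assembly, differed by -0.07 ± 0.11 (95% interval -0.32 to 0.19). Cd55, whose product speeds the decay of C3-cleaving enzymes on cell surfaces, differed by -0.06 ± 0.13 (-0.37 to 0.25). The pore inhibitor genes Cd59a and Cd59b, close copies of each other, differed by 0.01 ± 0.25 and -0.64 ± 0.28. Cfi, the protease gene that with cofactors cleaves C3b and C4b, differed by -0.75 ± 0.28 (adjusted p = 0.0897) and was detected on 1 mutant array. Calls were gained by Cfi without mutant mouse 2 (-1.08, adjusted p = 0.0121) and by Cd59b with array weights (adjusted p = 0.0319) and without control mouse 3 (0.0310). The 1 receptor gene measured, Vsig4, a macrophage receptor of C3 fragments, differed by 0.48 ± 0.19 and did not pass (adjusted p = 0.104), though it did with array weights (adjusted p = 0.0309).

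Markers of cells that make C1s and C1 inhibitor in tissue are given beside those genes. Of 10 fibroblast markers 8 fell and 0 rose (8 and 0 at an unadjusted p under 0.05), with a median log2 difference of -1.80 and list means of 8.90 to 9.43 in mutants and 10.27 to 10.96 in controls. The collagen gene Col1a1 was 4.03-fold lower. The other 2 markers, Dcn and Pdgfra, gave no call, with log2 differences of 0.22 ± 0.13 and -0.04 ± 0.17. Of 9 mesothelial markers 5 fell and 1 rose, and of 8 endothelial markers 4 fell and 0 rose (4 and 0 unadjusted). Of 8 smooth muscle and pericyte markers 5 fell, of 3 monocyte markers 2 fell, and 0 rose in either list. Cardiac muscle and adipocyte markers were below 0 in 7 of 7 and 4 of 4 genes, and 2 and 1 of them fell. The cardiac actin gene Actc1 was 9.56-fold lower. The adipocyte hormone gene Adipoq was 10.7-fold lower, and was highest, at 11.85 on the log2 scale, in control mouse 2. The part of these shifts in the complement values was not tested.

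**Figure D3:**
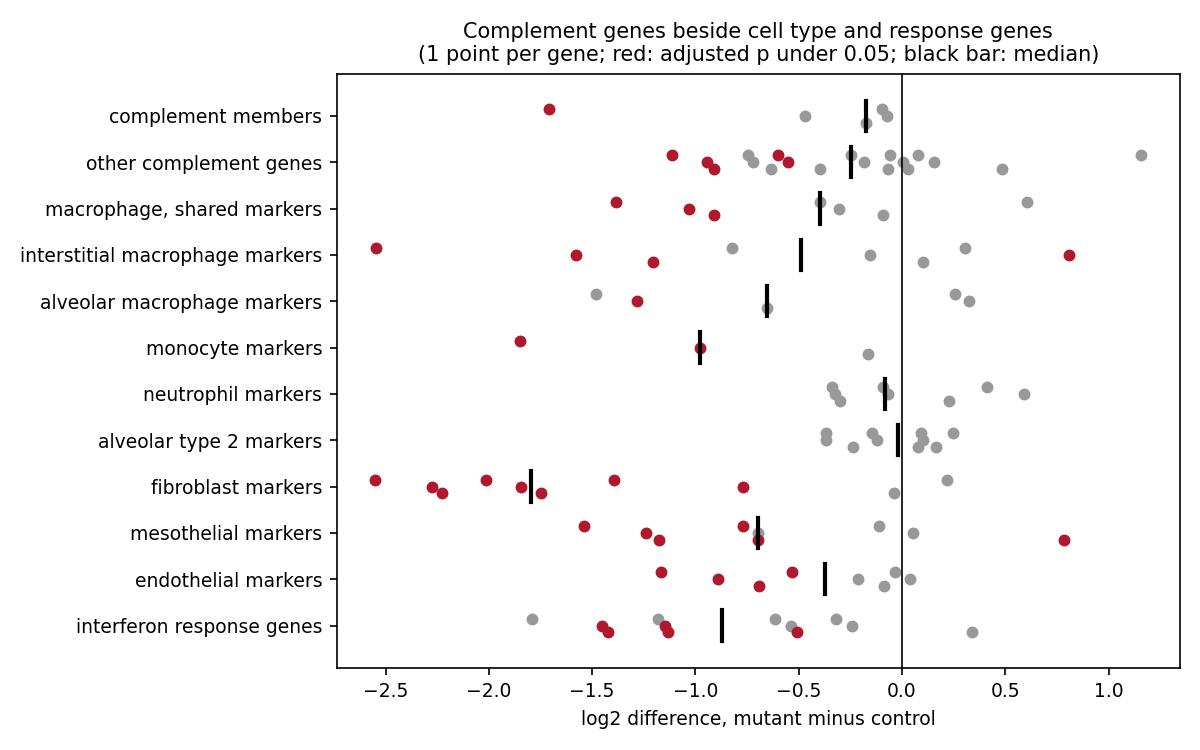
Log2 difference, mutant minus control (x axis), of each gene in the complement members, the other complement genes and 10 marker or response lists. Red points passed an adjusted p of 0.05 and black bars are medians. The alveolar type 2 markers hold no red point, whereas 8 of the 10 fibroblast markers are red and below 0.

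Genes that respond to interferon, a known inducer of C4 and C1 inhibitor, were also counted. Of 12 measured 5 fell and 0 rose, with 5 lower and 1 higher at an unadjusted p under 0.05. The other 7 gave no call. The list means overlapped, at 9.35 to 10.29 in mutants and 10.14 to 11.08 in controls. Whether these genes bear on the C4b or Serping1 values was not tested. Bst2, which encodes tetherin, was 2.74-fold lower and the guanylate-binding protein genes Gbp2 and Gbp3 2.68-fold and 2.21-fold lower. Psmb9, an immunoproteasome subunit gene, was 2.19-fold lower (adjusted p of the 4 genes 0.00458 to 0.0498). Of 8 acute phase genes 0 passed in limma's test, and 0 had an unadjusted p under 0.05. Their differences were above 0 in 6 and below 0 in 2. The list means were 11.07 to 11.57 in mutants and 10.71 to 11.01 in controls. Of 8 neutrophil markers 0 passed (0 at an unadjusted p under 0.05), with list means of 8.83 to 9.78 in mutants and 8.45 to 10.99 in controls.

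Over the 6 arrays, the genes most like Hc by Pearson correlation of log2 intensity were Dnmt3l, Lsp1, Arhgef15, Colgalt1 and Ints3 (r = 0.997 to 0.998). Such likeness was common for Hc: 465 of 9359 genes outside the pathway had r above 0.95. All these correlations use the same 6 arrays, and the part of the difference between groups in them was not tested. For C4b the most alike were Sbsn, Alkbh2, Ing4, Lypla2 and Tmem107 (r = 0.962 to 0.990), and 8 genes had r above 0.95. For the mean of the C1q chains they were Lamb3, Tagap, Acaa2, Pfkl and Etfb (r = 0.963 to 0.975), and 11 genes had r above 0.95.

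Hc kept its call under all 16 alternative settings tried, with log2 differences of -1.91 to -1.48 and adjusted p of 0.00114 to 0.0251. The lowest value came without mutant mouse 2 and the highest without mutant mouse 3. C4b, C1qa and C1qb passed under none of the 16, with adjusted p of 0.301 or more, and each changed sign under at least 1.

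**Figure D4:**
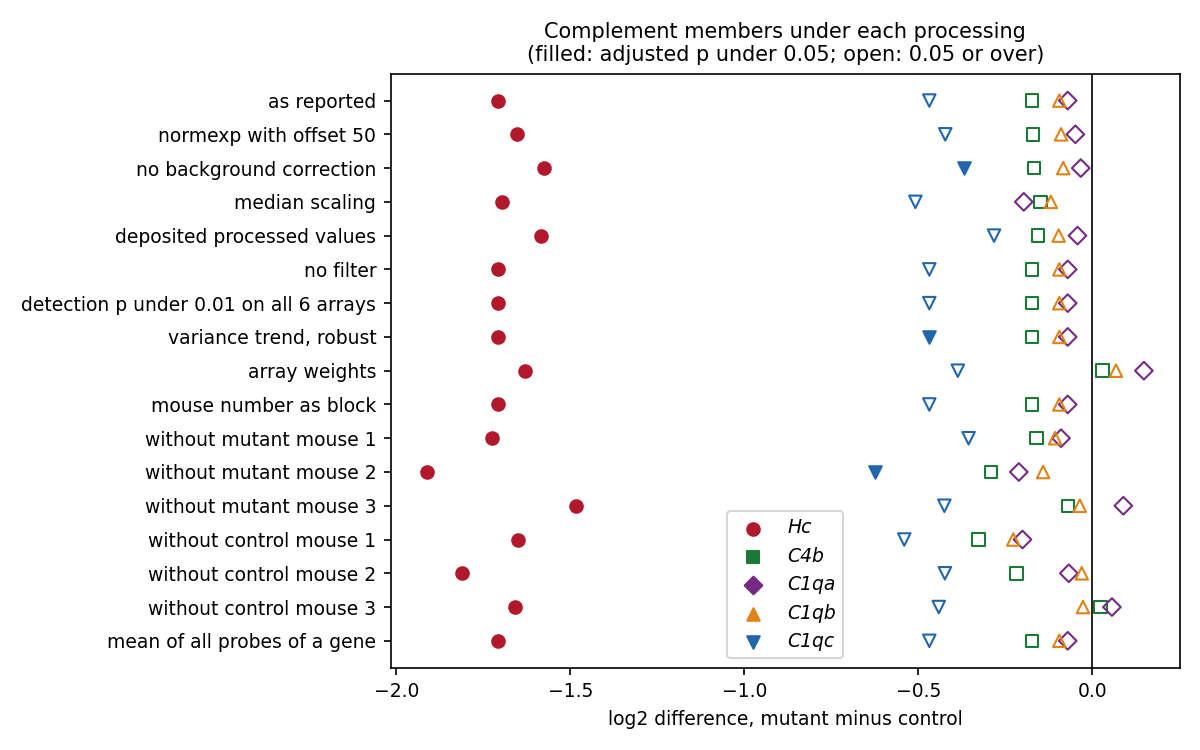
Log2 difference, mutant minus control (x axis), of the 5 members as reported and under each of 16 alternatives (rows). Filled symbols have an adjusted p under 0.05. Hc is filled in every row, between -1.91 and -1.48, C1qc is filled in 3 rows, and C4b, C1qa and C1qb are never filled.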

How the data were processed

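Total RNA of whole lungs (550 ng per sample) was amplified into biotin-labelled cRNA for Illumina bead arrays, per the labels' protocols. The deposited table of unnormalized values holds, per the file headers and for each array and probe, a linear intensity beside its detection p-value. The submitters' processing notes list GenomeStudio 2009.2 and R 2.4.1, with no role. Neither chip nor scan nor any background subtraction is stated. A second deposited table holds the authors' processed log2 values of 13261 probes, on 1 distribution in all columns. There, mutant mice 1 and 2 have equal values at all 13261 probes, which rank as the array of mutant mouse 2 does (rank correlation 1, and 0.990 with the array of mutant mouse 1). It was used only as an alternative, with 2 mutants and 3 controls.

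Intensities were background corrected with limma 3.58.1 in R 4.3.3 (neqc, negative controls inferred from detection p-values, offset 16), quantile normalized and taken to log2. Tested were the 13361 of 25697 probes with detection p under 0.05 in 3 or more of the 6 lungs. Symbols came from the platform annotation, updated by Entrez identifier through RefSeq genes of GRCm38.p6 for 12490 of 12495 probes. A further 932 tested probes were unnamed here. A gene was represented by its brightest tested probe. Groups came from the sample titles. Mutants were compared with controls by limma's moderated test without covariates, with Benjamini-Hochberg adjustment across the tested probes. SE is of the fit and SD between 3 mice. On data simulated from the 13361 probes with 200 changed, the test found 60% of the 2-fold and 91% of the 4-fold changes, with 6 false among 157 calls. That changed share is far below the 26.7% of probes called in the real data, so these rates may not hold there. The number of arrays limits the precision.

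The members and gene lists were chosen with earlier results of these data known. Named were Tmem100, all members, pathway genes past the threshold or otherwise those of lowest p in a role, up to 4 called interferon or acute phase genes of largest change, and the 5 genes most alike by correlation. Named after their values were seen are C2, Mbl1, Fcna, C8b, C8g, Clu, Cd55, Cd59a, Cd59b, Cfi and the marker genes. Alternatives were other background corrections, scaling, filters, a variance trend with robust estimation, array weights, the mouse number as a block, the deposited processed values, the mean of a gene's probes and leaving out each mouse. No chip was given, so it could not be used as a block.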

Additional observations from a re-analysis of the deposited data

How the results depend on the processing

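The number of members that fell, 1, was 2 without background correction and 2 with a variance trend and robust estimation together, where C1qc passed too, and 1 to 2 when 1 mouse was left out. The number of pathway genes that passed, 6, was 2 to 8 when 1 mouse was left out, and the number of probes, 3573, was 1664 to 3067 (2078 when mutant mouse 1 was left out, 1664 for control mouse 1 and 2108 for control mouse 2). Signs turned with array weights for C4b (0.030), C1qa (0.15), C1qb (0.068) and Cd55 (0.027), with median scaling for Fcna (-0.091), C8b (-0.052) and Cd59a (-0.0016), and with the deposited processed values for Fcna (-0.017). When 1 mouse was left out they turned for C4b (-0.33 to 0.024), C1qa (-0.21 to 0.089), Fcna (-0.17 to 0.20), C8b (-0.013 to 0.22), Cd55 (-0.14 to 0.018) and Cd59a (-0.27 to 0.20). None of these 7 genes passed in any setting, and the cause of the turns was not tested. With the mouse number as a replicate block, 2642 probes, 1 member and 5 pathway genes passed. The numbers do not pair the mice: deviations of same-numbered mice correlated at -0.09, -0.01 and -0.04. Folds of dim probes such as C1rl and Mbl1 depend on the background correction.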
